A study of Mus musculus with 12 samples.

Results

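The comparison described here asks what 20 Gy of radiation added to a fusion protein treatment in sorted cells of B16-OVA tumours, a mouse melanoma line that carries the model antigen ovalbumin. It takes 6 of the 12 libraries of the study, 3 from tumours given 20 Gy and the fusion protein (the combined group) and 3 from tumours given the fusion protein alone, and covers all 55401 gene identifiers, of which 18274 were high enough to test. All libraries, controls included, came from living cells sorted for CD45, found on all leukocytes, and for CD11c, the integrin chain used to gate dendritic cells and many macrophages, from mice labelled WT. Tumours grew for 10 days, 20 Gy was given on day 10, the fusion protein was given first as 20 mcg (day 10) and then as 10 mcg (day 14), and tumours were taken on day 17. The combined group had both treatments, the fusion protein group had the same 2 protein doses and no radiation, and the 20 Gy and untreated groups used for reference had no protein. What the fusion protein consists of, and the strain and age of the mice, is not given in the sources used here. Separate mice are not stated for the libraries of a group. The p-values below then reflect only how far the libraries spread within their groups, which may be technical.

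Dendritic cells take up material from dying tumour cells, carry it to lymph nodes and present it to T cells, and conventional type 1 dendritic cells (cDC1) are known for presenting such antigen to CD8 T cells. Radiation damages DNA, and DNA or RNA that reaches the cytosol or endosomes of a cell can set off type I interferon, which acts through its receptor on genes carrying an interferon-stimulated response element. CD11c is also carried by macrophages, monocyte-derived cells, plasmacytoid dendritic cells and some activated lymphocytes, so a CD11c gate holds a mixture.

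Adding 20 Gy moved no gene past the test. Limma called 0 of 18274 genes at an adjusted p under 0.05 (0% of genes), 534 genes (2.92%) had an unadjusted p under 0.05, and the smallest adjusted p was 0.9997. Leaving out 1 library moved the 534 from 224 (without combined 3) to 1073 (without fusion protein 1). EdgeR and DESeq2 on the recovered read counts also called 0, with 493 and 713 genes at an unadjusted p under 0.05 and a smallest adjusted p of 0.0589 by DESeq2. With the replicate number as a block, which ties each combined library to the fusion protein library of the same number, 0 genes were called, 1880 had an unadjusted p under 0.05 and the smallest adjusted p was 0.3594. The median 95% interval of a gene reached 0.984 on the log2 scale to each side, so with 3 libraries a group a typical gene had to differ by more than that to reach an unadjusted p under 0.05. No gene below is therefore said to have changed. Values are the deposited DESeq2-normalized counts in libraries 1, 2 and 3 of each group, a log2 fold change is the combined group minus the fusion protein group on the log2(normalized count + 1) scale with its SE from limma, and all adjusted p are 0.9997 by limma.

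The compared libraries held 16240389, 18304669 and 19155894 reads in genes for the fusion protein and 19395839, 23985496 and 23872118 for the combined group. The gate markers were high in all 6: Ptprc, which encodes CD45, ranged from 31489.5 to 53839 normalized counts and Itgax, which encodes CD11c, from 2226 to 7320.1. Genes of other cells were present too, with the T cell receptor complex gene Cd3g at 1544, 3280.2 and 5384 with the fusion protein. For the B cell and melanoma lists, library number 3 lay at an end of the range in every group. In fusion protein library 3 the mean log2 level over the B cell list was 6.8 against 10.2 and 11.1 in libraries 1 and 2, and over the melanoma list 7.8 against 3.3 and 2.7. Number 3 was also lowest for the B cell list in the untreated (5.8), 20 Gy (6.4) and combined (9.1) groups. For the melanoma list it was highest in these groups, at 6.3, 9.4 and 6.5. Genes of the olfactory, vomeronasal and trace-amine receptors, hardly used by leukocytes, had a read in 25.5, 4.79 and 19.7% of 1754 such genes with the fusion protein and in 57.7, 13.6 and 39.7% in the combined group, higher in every pair. Mitochondrial genes took 10.5, 6.95 and 9.36% of reads with the fusion protein and 10.7, 12.8 and 14.3% in the combined group, also higher in every pair, and the part of this share in the results was not tested. The part of the receptor reads was not tested beyond adding their level to the fit, which gave 0 calls as well.

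**Figure D1:**
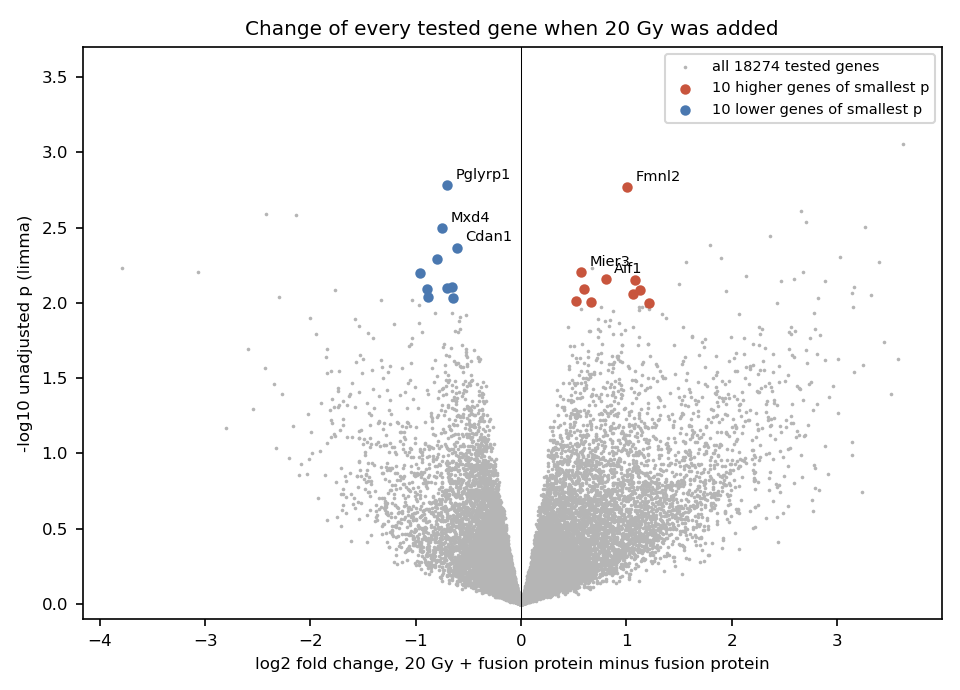
Each point is 1 of 18274 tested genes, with the log2 fold change of the combined group minus the fusion protein group on the x axis and −log10 of the unadjusted limma p on the y axis. The 10 higher (red) and 10 lower (blue) genes named by smallest p are coloured, and none of the points passes the adjusted threshold.

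The direction of the differences was slightly uneven. The log2 fold change was above 0 in 53.7% of tested genes and below 0 in 46.3%, with a median of 0.03 and a median absolute value of 0.275. All 3 numbered pairs were higher in the combined group for 3574 genes (19.6%) and lower for 2971 genes (16.3%). The 3 combined values lay wholly above the 3 fusion protein values in 818 genes (4.48%) and wholly below in 697 genes (3.81%). These shares are the background for the counts of each gene list below.

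The 10 genes of smallest p that were higher, taken from 325 with groups that did not overlap and a mean of at least 50, were Fmnl2, Mier3, Aif1, Palm, Lypla1, Shtn1, Slc31a2, Atg3, Tcf4 and Gca. Fmnl2 encodes a formin that builds actin filaments (chromosome 2, 52857860 to 53133804 in GRCm38), and it stood at 1042, 712 and 660.3 with the fusion protein alone and 1783, 1208 and 1839 with 20 Gy added. Its log2 fold change was 1.00 ± 0.25 (unadjusted p = 0.00171, limma), and the lowest combined library was above the highest fusion protein library. Aif1, which encodes the macrophage protein Iba1, stood at 737, 782 and 746 with the fusion protein alone and 1251, 995 and 1835 with 20 Gy added, a log2 fold change of 0.80 ± 0.24. The fusion protein libraries were close together for Aif1 and the combined libraries were spread over a wider range.

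Tcf4 encodes the transcription factor E2-2, needed to form plasmacytoid dendritic cells, and its values were 2839, 2553 and 1576 with the fusion protein alone and 4177, 3283 and 3282 with 20 Gy added (0.66 ± 0.21). Among the genes of transport and membranes, Slc31a2, a copper transporter, stood at 171, 95.2 and 147 with the fusion protein alone and 271, 216 and 378 with 20 Gy added (1.06 ± 0.34). Palm, whose product paralemmin lines the plasma membrane, stood at 621, 305 and 492 with the fusion protein alone and 1289, 649.6 and 1057 with 20 Gy added (1.08 ± 0.33). In each of these genes all 3 pairs were higher with 20 Gy, which follows from picking genes with groups apart. Atg3 encodes the enzyme that joins LC3 to lipid in autophagy, and its log2 fold change was 0.52 ± 0.17. Gca encodes the calcium-binding protein grancalcin, found in neutrophils and macrophages, and stood at 208, 86.1 and 119.8 with the fusion protein alone and 292, 259.5 and 358 with 20 Gy added (1.21 ± 0.39). The remaining higher genes were Shtn1, which encodes the actin-linked protein shootin 1 (1.13 ± 0.35), Lypla1, a thioesterase that removes palmitate from proteins (0.60 ± 0.19), and Mier3, a nuclear protein (0.57 ± 0.17).

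The 10 of smallest p that were lower, of 508 that met the same conditions, were Pglyrp1, Mxd4, Cdan1, Dab2ip, Fam210b, Adamts14, Hip1r, Slc15a2, Trp53rkb and Abca2. Pglyrp1 encodes a secreted protein that binds bacterial peptidoglycan (chromosome 7, 18871331 to 18890459), and it stood at 548, 491 and 617 with the fusion protein alone and 385, 315 and 316 with 20 Gy added. Its log2 fold change was −0.70 ± 0.17 (unadjusted p = 0.00165, limma), with every combined library below every fusion protein library. Mxd4, a partner of Max that opposes Myc, stood at 1179, 1618 and 1096 with the fusion protein alone and 732, 891 and 678 with 20 Gy added (−0.75 ± 0.20). Dab2ip, which switches off Ras, stood at 548, 619 and 799 with the fusion protein alone and 309, 373 and 441 with 20 Gy added (−0.80 ± 0.23). All 3 pairs of each gene were lower, which follows from picking genes with groups apart. The folds were less than 1 on the log2 scale.

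Hip1r links clathrin-coated pits to actin, and its values were 2098, 3389 and 3213 with the fusion protein alone and 1529, 1919 and 1799.6 with 20 Gy added (−0.70 ± 0.22). Slc15a2, which carries small peptides into cells, stood at 329, 427 and 321 with the fusion protein alone and 165, 208 and 203 with 20 Gy added (−0.89 ± 0.28). The log2 fold changes of the other lower genes were −0.65 ± 0.21 for the lipid transporter Abca2, −0.66 ± 0.21 for the procollagen protease Adamts14, −0.61 ± 0.17 for Cdan1 and −0.96 ± 0.29 for the mitochondrial protein Fam210b. Trp53rkb gave −0.89 ± 0.28, a value that is uncertain because the gene has a near copy, Trp53rka, that could share its reads.

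**Figure D2:**
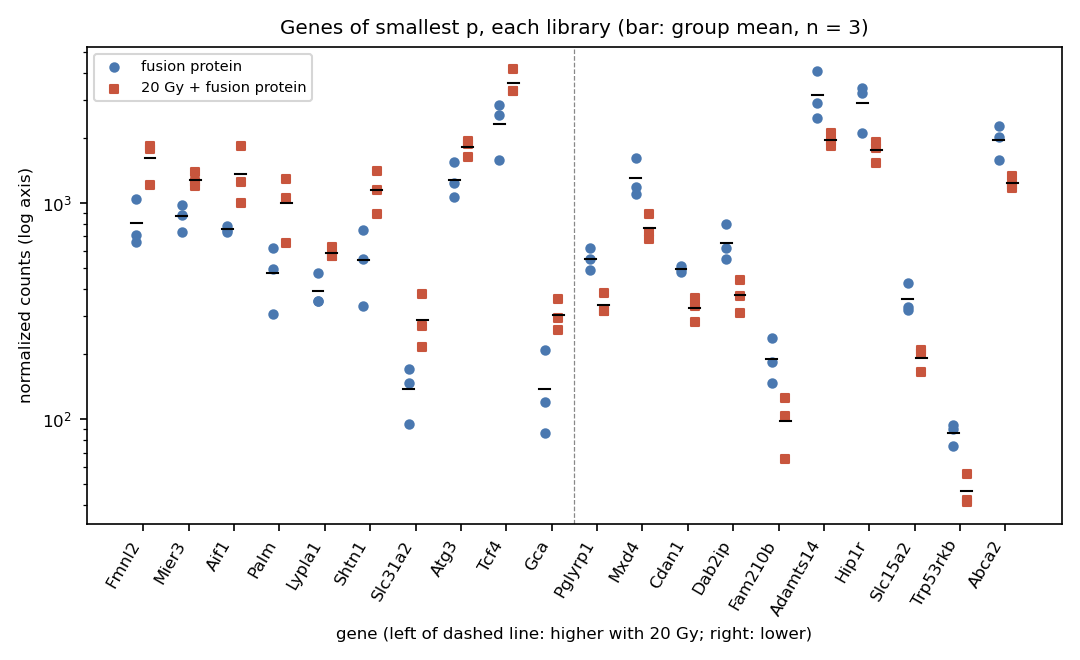
Normalized counts (log axis) of 20 genes (10 higher, 10 lower) named by smallest p, 1 point per library, with fusion protein libraries and combined libraries in separate colours. The genes were picked for groups that do not overlap, so the gap between the colours is a description; Pglyrp1, for example, runs from 315 to 385 in the combined group and from 491 to 617 with the fusion protein alone.

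Type I interferon genes had the largest share of members higher in all 3 pairs among the 35 gene lists. All 39 tested genes of the list had a higher mean in the combined group, against 53.7% of all genes, and 36 of 39 were higher in all 3 pairs, against 19.6%. None was called, the median log2 fold change was 0.64 against 0.03 over all genes, and single genes ran from 0.03 to 1.69. Both compared groups already held these transcripts at a high level: the mean log2 level of the list was 12.2, 11.3 and 11.8 in the fusion protein libraries and 12.6, 11.9 and 12.7 in the combined libraries, against 9.1, 8.6 and 8.9 in the untreated ones. Leaving out 1 library at a time moved the median from 0.39 (without fusion protein 2) to 0.88 (without combined 2), and with the receptor level in the fit it was 0.65. Without fusion protein library 3, 37 of 39 had a higher mean (52.6% of all genes), and without number 3 in every group the median was 0.41.

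In 4 of the 39 genes (Slfn5, Ifit3b, Oas3 and Ifit1) the 3 combined values lay wholly above the 3 fusion protein values, against 4.48% of all genes. The start regions of these 4 genes are shown because the list is defined by a common response and the element through which interferon acts on its target genes can be read in them. The genes were picked for this after their values were seen. Sequences are from RefSeq on GRCm38.p6, from 250 bases before the gene start to 50 after it, on the gene's own strand, 5′ to 3′, with the core of the element in capitals: GAAA, any 2 bases, and GAAA again, or TTTC, any 2 bases, and TTTC where the match is on the other strand.

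Slfn5, chr11:82951852-82952151, plus strand: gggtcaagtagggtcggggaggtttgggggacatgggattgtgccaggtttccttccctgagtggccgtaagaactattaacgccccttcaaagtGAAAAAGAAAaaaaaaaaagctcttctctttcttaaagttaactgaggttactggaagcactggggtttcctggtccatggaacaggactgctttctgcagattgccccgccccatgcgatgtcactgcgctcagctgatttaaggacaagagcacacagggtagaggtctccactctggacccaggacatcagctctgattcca
Ifit3b, chr19:34607707-34608006, plus strand: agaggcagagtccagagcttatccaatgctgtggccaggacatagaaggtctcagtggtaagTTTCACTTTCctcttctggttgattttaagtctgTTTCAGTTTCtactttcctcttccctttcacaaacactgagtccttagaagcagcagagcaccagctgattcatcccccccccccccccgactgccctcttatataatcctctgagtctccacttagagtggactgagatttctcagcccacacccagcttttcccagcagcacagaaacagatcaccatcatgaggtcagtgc
Oas3, chr5:120777610-120777909, minus strand: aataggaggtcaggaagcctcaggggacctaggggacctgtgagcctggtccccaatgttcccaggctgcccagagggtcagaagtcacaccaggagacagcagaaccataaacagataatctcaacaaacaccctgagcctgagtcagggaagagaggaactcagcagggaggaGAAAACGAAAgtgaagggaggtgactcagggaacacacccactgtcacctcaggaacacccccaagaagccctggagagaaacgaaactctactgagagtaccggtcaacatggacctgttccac
Ifit1, chr19:34640639-34640938, plus strand: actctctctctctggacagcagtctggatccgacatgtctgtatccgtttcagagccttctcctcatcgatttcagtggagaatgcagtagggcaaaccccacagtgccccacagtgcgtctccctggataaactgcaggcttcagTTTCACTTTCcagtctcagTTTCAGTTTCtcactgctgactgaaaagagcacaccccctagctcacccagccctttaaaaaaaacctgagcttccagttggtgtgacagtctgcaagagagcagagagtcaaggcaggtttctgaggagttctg

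The windows of Slfn5 and Oas3 hold 1 match each and those of Ifit3b and Ifit1 hold 2 each. Of the 39 tested genes of the list, 27 had a RefSeq promoter entry and 16 of these (59.3%) held the motif, against 1079 of 27025 genes (3.99%) and 1131 of 32851 promoter windows (3.44%) in the whole table, 0 of 11 T cell list genes, and 1 of 12 (8.33%) in each of the plasmacytoid dendritic cell and cDC1 lists. A match is a run of letters and does not show binding.

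Slfn5, a member of the schlafen family induced by interferon, stood at 10765, 9009 and 5152 with the fusion protein alone and 17124, 11861 and 14121 with 20 Gy added, a log2 fold change of 0.84 ± 0.29 with a 95% interval of 0.21 to 1.47. Oas3, which makes the 2-5A signal that activates RNase L on double-stranded RNA, stood at 5357, 4513 and 5177 with the fusion protein alone and 7289, 5718 and 7711 with 20 Gy added (0.45 ± 0.28). Every combined library was above every fusion protein library for both. Ifit1 and Ifit3b, whose products bind viral RNA, gave 3423, 2067 and 3723 with the fusion protein alone and 4539.8, 4035 and 6984 with 20 Gy added for Ifit1 (0.76 ± 0.58) and 2969.9, 1998 and 2657 with the fusion protein alone and 4112, 3047 and 4765 with 20 Gy added for Ifit3b (0.64 ± 0.34). Ifit3b has a near copy, Ifit3, and the split of reads between them is uncertain. The 4 list members of smallest p were Slfn5, Phf11b, Ifit2 and Ifi44. Ifit2 had the values 12783, 5213 and 8361 with the fusion protein alone and 20657, 11527 and 21042 with 20 Gy added (1.06 ± 0.47), and Ifi44 the values 6069.9, 1862 and 2315 with the fusion protein alone and 7703, 4071 and 6486 with 20 Gy added (0.99 ± 0.45). In both, fusion protein library 1 was above combined library 2, so the groups overlapped while each pair was higher with 20 Gy. Phf11b gave 0.76 ± 0.33.

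Receptors and sensors of nucleic acid followed a similar direction. Of 17 tested genes of the sensing list, 14 had a higher mean and 11 were higher in all 3 pairs (background 19.6%), with a median of 0.40 and 0 called, and the median was 0.22 (without fusion protein 2) to 0.60 (without combined 2) over left-out libraries. Tlr9, the endosomal receptor for unmethylated CpG DNA, stood at 2297, 1832 and 1857 with the fusion protein alone and 3457, 2345 and 3955 with 20 Gy added (0.68 ± 0.22, unadjusted p = 0.0101, limma). Tlr7, the endosomal receptor for single-stranded RNA, stood at 2130.1, 1548 and 909.7 with the fusion protein alone and 2677, 2147 and 2263 with 20 Gy added (0.71 ± 0.32). The groups did not overlap for either. Tlr3, the receptor for double-stranded RNA, which cDC1 carry at a high level, stood at 457, 236 and 180.2 with the fusion protein alone and 808, 447 and 589 with 20 Gy added (1.15 ± 0.45), with combined library 2 just below fusion protein library 1. Ifih1, which encodes the cytosolic RNA sensor MDA5 and is itself induced by interferon, gave 0.82 ± 0.38.

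The interferon gamma list was less even. Of 26 tested genes, 22 were higher on average and 15 in all 3 pairs (background 19.6%), and 0 were called. The median was 0.36, and 0.18 (without fusion protein 2) to 0.55 (without fusion protein 3) over left-out libraries. Cxcl9, a chemokine that draws T cells through CXCR3, stood at 247, 575 and 371 with the fusion protein alone and 407, 774 and 750.1 with 20 Gy added (0.72 ± 0.78). Cxcl10, which acts on the same receptor, stood at 1499, 411 and 3589 with the fusion protein alone and 2355, 1700.4 and 5181 with 20 Gy added (1.08 ± 1.42, 95% interval −2.03 to 4.18). Each pair was higher with 20 Gy for both chemokines, while the groups overlapped. Gbp5, a guanylate-binding protein of cell-autonomous defence, gave 0.59 ± 0.49, Irgm2 0.51 ± 0.28, and Nos2, the inducible nitric oxide synthase, 2.82 ± 1.96 from values of 4.23, 4.05 and 163 with the fusion protein alone and 18.0, 160.4 and 501 with 20 Gy added.

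Antigen presentation genes are given by class. The median of the 21 tested MHC class I genes was 0.06, with B2m, the light chain of class I, at 0.29 ± 0.35 and Tap2, a subunit of the peptide pump, at −0.20 ± 0.27. All 13 tested MHC class II genes had a higher mean (median 0.49, 0 called), yet only 2 were higher in all 3 pairs (background 19.6%). Without fusion protein library 3, which was low for B cell transcripts, the class II median was −0.01, and without number 3 in every group it was −0.02. H2-Ab1, a class II chain, shows this in its values of 16942, 21083 and 7879.8 with the fusion protein alone and 22258, 17701 and 20698 with 20 Gy added, where only the third fusion protein library was low. Ctss, which encodes the protease that trims the invariant chain before class II is loaded, differed from it with 15286, 10029.9 and 10072 with the fusion protein alone and 21747, 15786 and 27718 with 20 Gy added (0.87 ± 0.29), the combined libraries all above the others.

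**Figure D3:**
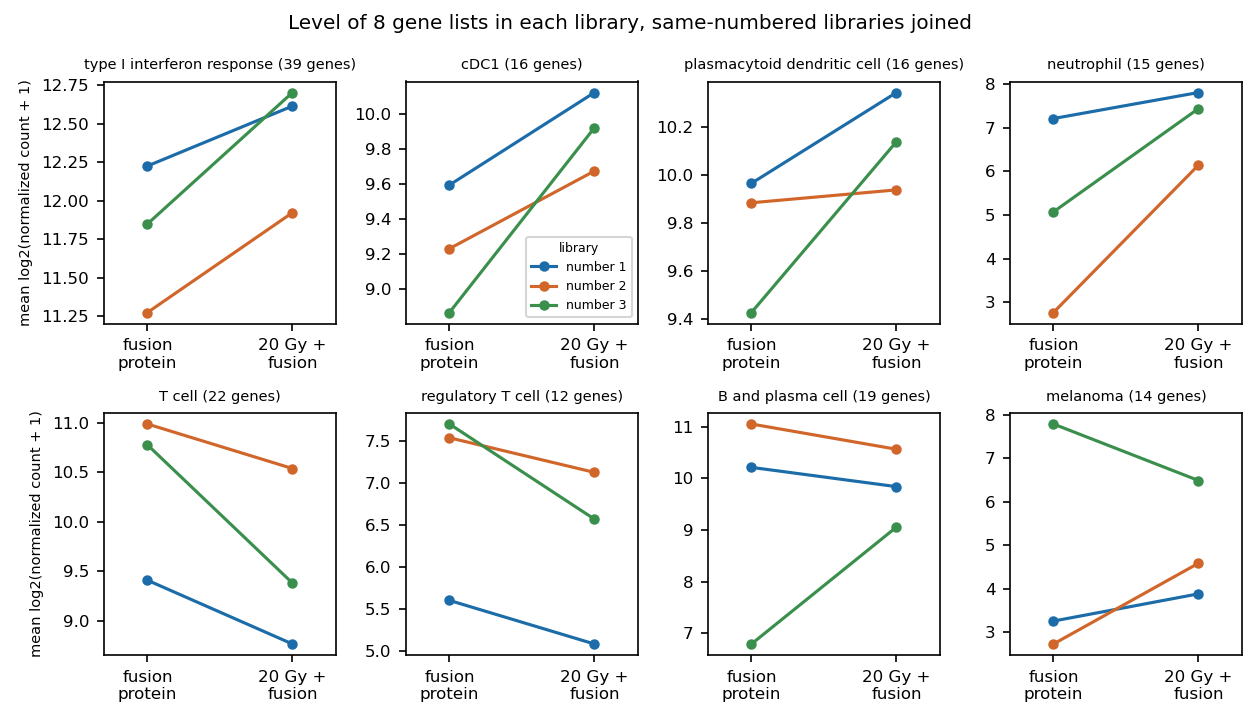
Mean log2(normalized count + 1) of 8 gene lists in the 6 compared libraries, 1 panel per list with its own y axis, fusion protein at left, combined group at right, and lines joining libraries of the same number. The type I interferon list lies at 11.3 to 12.2 with the fusion protein and at 11.9 to 12.7 in the combined group, each line going up, and the B cell list is at 6.8 in fusion protein library 3.

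Most cDC1 markers were higher on average with 20 Gy. For cDC2 markers the share higher on average was near that over all genes, and none of either list was called. In bulk RNA, more cells of a type and more RNA per cell cannot be told apart. Flt3, the growth factor receptor of dendritic cells and their precursors, stood at 827, 681 and 243 with the fusion protein alone and 1606, 856 and 953 with 20 Gy added (1.08 ± 0.44, 95% interval 0.11 to 2.06), groups apart. Zbtb46, a transcription factor of conventional dendritic cells, stood at 686, 449.8 and 418 with the fusion protein alone and 832, 527 and 689 with 20 Gy added (0.41 ± 0.32) and overlapped. Both genes were looked at outside the rule for named genes, as checks of the sort.

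Of 16 cDC1 markers tested, 13 were higher on average and 11 in all 3 pairs (background 19.6%), with a median of 0.77. Clec9a, the cDC1 receptor for actin of dead cells, stood at 889.5, 295 and 188 with the fusion protein alone and 1927, 591 and 1137 with 20 Gy added (1.57 ± 0.64). Gcsam stood at 64.5, 60.8 and 35.2 with the fusion protein alone and 138, 92.8 and 94.1 with 20 Gy added (1.03 ± 0.40), with groups apart, and Naaa, an acid amidase, gave 0.89 ± 0.37. Xcr1, the chemokine receptor that defines cDC1, stood at 158, 192 and 30.8 with the fusion protein alone and 233, 222 and 172 with 20 Gy added (1.07 ± 0.53) and was higher in each pair by unequal amounts. Without fusion protein library 3, 13 of 16 were again higher. The list median ranged over left-out libraries from 0.37 (without fusion protein 3) to 1.04 (without combined 2). Of 16 markers of cDC2 and monocyte-related dendritic cells, 9 were higher on average (56.2% against 53.7% of all genes). In all 3 pairs 6 were higher (background 19.6%) and 3 lower (16.3%). The median was 0.24, and 0.05 with 8 higher when fusion protein library 3 was left out. Sirpa, the inhibitory receptor for CD47 (0.62 ± 0.37), and Clec12a (0.77 ± 0.37) were higher in all 3 pairs, while Esam gave −1.69 ± 1.16.

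Plasmacytoid dendritic cell genes, from the cells known for making large amounts of type I interferon, were mostly higher in the combined group. Of 16 tested, 14 were higher on average in the combined group (53.7% of all genes) and 8 in all 3 pairs (19.6%), for a median of 0.43 and 0 called. In 5 of the 16 the groups were apart and higher with 20 Gy, against 4.48% of all genes. Besides Tcf4, Tlr7 and Tlr9 these included Sct, which encodes secretin, a transcript of mouse plasmacytoid dendritic cells, at 89.9, 99.3 and 115 with the fusion protein alone and 134, 135 and 185 with 20 Gy added (0.56 ± 0.69). Klk1 was the 1 member with groups apart in the other direction (−0.83 ± 0.78), and Cox6a2, a cytochrome oxidase subunit, was apart and higher (0.90 ± 0.68). The defining surface gene Siglech was less even at 1467, 1638 and 692 with the fusion protein alone and 2029, 1475 and 1337 with 20 Gy added (0.42 ± 0.50), with pair 2 lower. Lair1, an inhibitory collagen receptor, gave 0.82 ± 0.34, and Upb1 gave 0.88 ± 0.37. Irf7 and Bst2 belong to the interferon list as well. A higher mean was seen for 12 of 16 without fusion protein library 3 (median 0.37), and over left-out libraries the median was 0.30 (without combined 1) to 0.59 (without fusion protein 2). With 20 Gy against untreated tumours the same list had a median of −0.47. There 9 genes were lower in all 3 pairs (20.3% of all genes) and 0 higher (20.7%), and 3 of 16 were higher on average (53.3%). The difference between these list medians was not tested.

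Genes of mature regulatory dendritic cells, which combine migration, costimulation and inhibitory ligands, were mixed. Of 30 tested, 24 were higher on average (53.7% of all genes) and 12 in all 3 pairs (19.6%), with a median of 0.24. The median was 0.03 (without fusion protein 1) to 0.57 (without combined 1) over left-out libraries and 0.71 with the receptor level in the fit. Marcks, an actin-linked substrate of protein kinase C, stood at 2166, 1531 and 1543 with the fusion protein alone and 2919.8, 2642 and 4006 with 20 Gy added (0.86 ± 0.35), groups apart. Il12b, the p40 chain of IL-12 and IL-23, stood at 51.8, 65.8 and 201 with the fusion protein alone and 97.1, 184 and 477 with 20 Gy added (1.20 ± 1.20, 95% interval −1.44 to 3.84). Cd274, which encodes PD-L1, stood at 1682, 1424 and 5373 with the fusion protein alone and 2321, 3408 and 7654 with 20 Gy added (0.74 ± 0.72, 95% interval −0.83 to 2.32), higher in each pair with the third library high in both groups.

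Ccr7, the receptor that guides dendritic cells to lymph nodes, stood at 508, 2167 and 1993 with the fusion protein alone and 509, 1699.6 and 2044 with 20 Gy added, a log2 fold change of −0.10 ± 0.97 with a 95% interval of −2.23 to 2.03. Fscn1, the actin-bundling protein of mature dendritic cells, stood at 378, 2601 and 1348 with the fusion protein alone and 452, 1739 and 1558 with 20 Gy added (−0.04 ± 0.97, interval −2.16 to 2.08). Both followed the library number, low in library 1 of each group, and their pairs differed in sign. Ccl22, a chemokine for CCR4 on regulatory T cells, stood at 11.6, 284 and 92.3 with the fusion protein alone and 16.2, 185 and 134 with 20 Gy added (0.12 ± 1.44, interval −3.04 to 3.28). Ccl17, which acts on the same receptor, was near the floor of detection at 1.06, 1.01 and 11.0 with the fusion protein alone and 2.70, 3.93 and 0 with 20 Gy added (−0.48 ± 1.41, interval −3.57 to 2.60). The intervals of these 4 genes reach past a doubling and past its reverse, so neither a difference nor its absence can be read from them. Itgax itself gave 0.26 ± 0.43 from values of 7320.1, 4200.0 and 2226 with the fusion protein alone and 6540.0, 4007 and 4491 with 20 Gy added.

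Macrophage and monocyte transcripts leaned higher. Of 22 macrophage genes, 19 were higher on average and 11 in all 3 pairs (median 0.55). All 16 monocyte genes were higher on average, 10 of them in all 3 pairs (median 0.70), with 0 called in either list. The shares over all genes were 53.7% higher on average and 19.6% in all 3 pairs. Without fusion protein library 3 the counts with a higher mean were 18 and 14. Over left-out libraries the macrophage median was 0.19 (without combined 3) to 0.87 (without combined 2) and the monocyte median 0.27 (without fusion protein 2) to 1.17 (without fusion protein 1). Ms4a7, a macrophage membrane protein, stood at 135, 68.9 and 115 with the fusion protein alone and 258, 193 and 409 with 20 Gy added (1.40 ± 0.67), groups apart. Cd68, a lysosomal protein of macrophages, gave 0.82 ± 0.42 and Fcgr1, the high-affinity receptor for IgG, 1.32 ± 0.96. Ctsd, a lysosomal protease, ran the other way at 2720.3, 2526 and 4368 with the fusion protein alone and 1989, 2098 and 3031 with 20 Gy added (−0.42 ± 0.38). Ms4a4c stood at 5010.2, 2292 and 3073 with the fusion protein alone and 7044, 3977 and 7733 with 20 Gy added (0.87 ± 0.34), Plac8 gave 0.64 ± 0.40 and Ccr2, which brings monocytes out of the marrow, 0.39 ± 0.24.

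Genes for the uptake of dying cells and for lipid-laden macrophages had a median of 0.57. In all 3 pairs 12 of 21 were higher (background 19.6%) and 3 lower (16.3%). The median was 0.36 (without fusion protein 2) to 0.89 (without combined 2) over left-out libraries. Axl, a receptor that binds dying cells through Gas6, stood at 3273, 1629 and 2865 with the fusion protein alone and 5529.6, 2816 and 5439 with 20 Gy added (0.82 ± 0.48), and Gas6 at 7.40, 2.03 and 5.49 with the fusion protein alone and 18.9, 18.1 and 10.4 with 20 Gy added (1.57 ± 0.99). The integrin chain Itgb5 had groups apart at 122, 129.7 and 95.6 with the fusion protein alone and 249, 141 and 229.6 with 20 Gy added (0.80 ± 0.47). In the complement list, 14 of 17 were higher on average, against 53.7% of all genes (median 0.54, 0.32 by edgeR). In all 3 pairs 8 were higher and 1 lower.

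Transcripts of neutrophils, which are not of the dendritic cell lineage, had the largest median of the 35 lists after the erythroid ones. All 15 tested genes were higher on average (53.7% of all genes) and 11 in all 3 pairs (19.6%), with a median of 2.00 and 0 called. The mean log2 level of the list was 7.2, 2.8 and 5.1 in the fusion protein libraries and 7.8, 6.1 and 7.4 in the combined ones, with overlap. S100a9, a subunit of calprotectin, stood at 1551, 8.10 and 234 with the fusion protein alone and 2174, 610.3 and 1729.7 with 20 Gy added (3.15 ± 1.66), and Mmp8, the neutrophil collagenase, at 134, 1.01 and 19.8 with the fusion protein alone and 252, 73.1 and 158 with 20 Gy added (3.01 ± 1.40). Fusion protein library 1 held more of both than combined library 2, so the groups overlapped. Stfa2l1, a neutrophil stefin of a family of near copies, was apart at 10.6, 0 and 1.10 with the fusion protein alone and 17.1, 25.9 and 34.5 with 20 Gy added (3.16 ± 0.98), with few counts in the lower group. The median ran from 0.84 (without fusion protein 2) to 3.10 (without fusion protein 1) over left-out libraries. Erythroid genes had a median of 2.05 over 7 genes, 1.06 (without fusion protein 2) to 3.54 (without fusion protein 1) over left-out libraries. Hbb-bs, a beta globin, stood at 139, 1.01 and 8.79 with the fusion protein alone and 156, 55.8 and 101 with 20 Gy added (2.79 ± 1.68). Of 15 stroma genes, 12 were higher on average (53.7% of all genes) and 3 lower (46.3%), down to −1.13. In all 3 pairs 6 were higher (19.6%) and 2 lower (16.3%). The list median was 0.70, and 0.28 (without combined 3) to 1.29 (without combined 2) over left-out libraries. The 2 members with groups apart were Postn and Kdr. Postn, which encodes the matrix protein periostin, stood at 1.06, 5.07 and 5.49 with the fusion protein alone and 7.19, 33.0 and 62.1 with 20 Gy added (2.59 ± 0.98). Kdr, the VEGF receptor, stood at 1079, 928 and 1138 with the fusion protein alone and 2351, 1449 and 2778 with 20 Gy added (1.02 ± 0.54). The part of these other cells in the differences above was not tested.

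T cell transcripts leaned the other way. All 22 tested T cell genes had a lower mean in the combined group, against 46.3% of all genes, and 17 were lower in all 3 pairs, against 16.3%, with a median of −0.86 and 0 called. The mean log2 level of the list was 9.4, 11.0 and 10.8 in the fusion protein libraries and 8.8, 10.5 and 9.4 in the combined ones, so the groups overlapped. Trbc1, a constant region of the T cell receptor beta chain, stood at 1177, 1074 and 837 with the fusion protein alone and 664, 601 and 624 with 20 Gy added (−0.69 ± 0.28) and its groups did not overlap, though reads may be split with its near copy Trbc2. Lck, the kinase that starts T cell receptor signalling, stood at 3443, 5127 and 3849.8 with the fusion protein alone and 2020.0, 3619 and 2061 with 20 Gy added (−0.72 ± 0.39). Cd2, an adhesion receptor of T and NK cells, stood at 2678, 5339 and 3973 with the fusion protein alone and 1332, 3776 and 1829.8 with 20 Gy added (−0.87 ± 0.47). In both, fusion protein library 2 was highest and combined library 2 overlapped the fusion protein range. Cd3g stood at 841, 2379 and 1336 in the combined group (−1.12 ± 0.71). Without fusion protein library 3, 21 of 22 were lower on average (47.4% of all genes). The median ran from −1.37 (without fusion protein 1) to −0.52 (without combined 1) over left-out libraries and was −0.52 with the receptor level in the fit.

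Killer cell genes were less even. Of 21 genes of cytotoxic and NK cells, 18 were lower on average, yet only 3 in all 3 pairs (background 16.3%). The median of −0.26 was 0.06 without fusion protein library 1. Nkg7, a granule protein, stood at 4300.5, 2846 and 6088 with the fusion protein alone and 2486, 2833 and 3113 with 20 Gy added (−0.59 ± 0.38), and Prf1, which encodes perforin, at 6622, 6142 and 18080.0 with the fusion protein alone and 3892, 6556 and 6896 with 20 Gy added (−0.69 ± 0.47). All 12 regulatory T cell genes were lower on average (8 of 12 without fusion protein library 3) and 9 in all 3 pairs (background 16.3%). The regulatory T cell median of −0.66 became 0.02 with the receptor level in the fit. Foxp3, their defining factor, stood at 41.2, 367 and 123 with the fusion protein alone and 24.3, 222 and 52.6 with 20 Gy added (−0.89 ± 1.17, interval −3.45 to 1.67), lower in each pair, with number 2 high in both groups. Ikzf2, which encodes Helios, gave −0.49 ± 0.56.

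The B cell list cannot be given a direction. Its 19 tested genes all had a higher mean in the combined group, for a median of 0.48. Without fusion protein library 3, however, the median was −0.95 with 17 of 19 lower. It was −0.55 without number 3 in every group and −0.34 by edgeR. Only 1 of the 19, Xbp1, which drives the secretory pathway of plasma cells and dendritic cells, was higher in all 3 pairs (0.33 ± 0.30). Melanoma transcripts had the same limit, with a median of 0.46 by limma and −1.22 by edgeR. The limma median was 2.17 without fusion protein library 3 and 1.31 without number 3 in every group. In fusion protein library 3 the pigment enzyme gene Tyrp1 stood at 1147 normalized counts against 4.49 to 203 in the combined group, and number 3 was highest in every group.

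**Figure D4:**
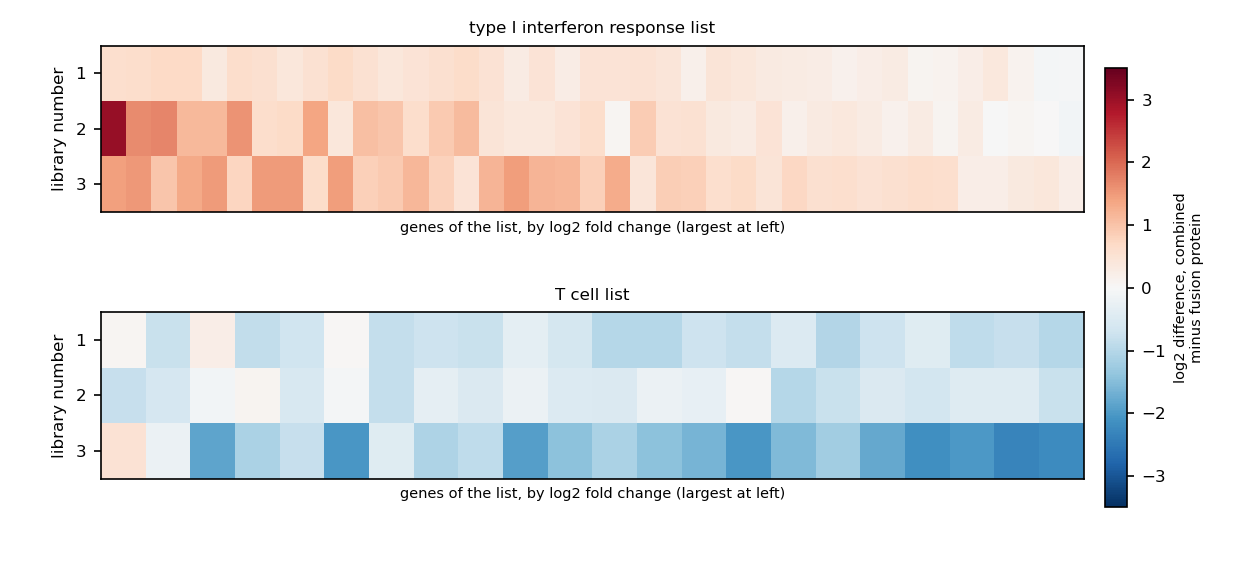
Log2 difference of each tested gene of the type I interferon list (top) and the T cell list (bottom) within each numbered pair, combined minus fusion protein, with 1 row per library number and 1 column per gene, ordered by log2 fold change; red is higher and blue lower with 20 Gy. The median over genes in pairs 1, 2 and 3 was 0.41, 0.49 and 0.80 for interferon genes and −0.75, −0.49 and −1.48 for T cell genes.

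Cytokine and chemokine genes leaned higher with 20 Gy. All 20 tested genes of the inflammatory cytokine list had a higher mean (19 without fusion protein library 3), against 53.7% of all genes. In all 3 pairs 13 were higher (background 19.6%), with a median of 0.77 and 0 called. That median was 0.32 (without fusion protein 2) to 1.43 (without fusion protein 3) over left-out libraries and 0.49 by edgeR. Il1b, which encodes IL-1 beta, stood at 320.5, 124 and 2781 with the fusion protein alone and 725, 1350.4 and 4710.1 with 20 Gy added (1.79 ± 1.44), and Il1rn, its receptor antagonist, at 406, 199.6 and 2212 with the fusion protein alone and 947, 1542 and 5231 with 20 Gy added (1.80 ± 1.38). Library 3 was highest in both groups for both genes. Casp1, the protease that matures IL-1 beta, gave 0.73 ± 0.44. Of 21 chemokines, 15 were higher on average and 13 in all 3 pairs (background 19.6%). Their median was 0.84, and 0.42 (without fusion protein 1) to 1.14 (without combined 1) over left-out libraries. Ccl6, made by myeloid cells, stood at 1017, 149.9 and 356 with the fusion protein alone and 1355, 449 and 1228 with 20 Gy added (1.26 ± 0.80), and Cxcl3, which draws neutrophils, at 0, 4.05 and 19.8 with the fusion protein alone and 3.60, 61.4 and 304 with 20 Gy added (3.23 ± 2.26).

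Signals to T cells had medians of 0.68 over 10 costimulatory genes and 0.20 over 20 coinhibitory ones, with 0 called. Over left-out libraries the first was 0.26 (without fusion protein 2) to 0.94 (without fusion protein 3), with 0.34 by edgeR, and the second −0.053 (without combined 3) to 0.31 (without fusion protein 3). Cd86, which binds CD28 and CTLA-4, stood at 965, 783 and 1443 with the fusion protein alone and 1273, 1483 and 2370.1 with 20 Gy added (0.68 ± 0.45), and Cd40, the receptor for help from CD4 T cells, at 720.3, 662 and 1016 with the fusion protein alone and 1272, 937 and 2027 with 20 Gy added (0.77 ± 0.44). Each pair was higher, and fusion protein library 3 was above the lowest combined library for both. Cd200r1, an inhibitory receptor of myeloid cells, gave 1.07 ± 0.53. Within the TGF-beta list (median −0.07), Tgfbi, a matrix protein induced by TGF-beta, stood at 3540.0, 1442 and 3518 with the fusion protein alone and 6349, 3214 and 8388 with 20 Gy added (1.08 ± 0.66).

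Genes that answer DNA damage were mixed 7 days after radiation. The p53 list had a median of 0.12, with 6 of 25 genes higher and 3 lower in all 3 pairs, near the background of 19.6% and 16.3%. Within it, Phlda3, a p53 target that restrains AKT, stood at 34.9, 32.4 and 74.7 with the fusion protein alone and 80.0, 80.2 and 86.3 with 20 Gy added (0.89 ± 0.55), and Ccng1, which encodes cyclin G1, at 1712, 1446 and 1583 with the fusion protein alone and 2028, 2127 and 1795 with 20 Gy added (0.33 ± 0.23), both with groups apart. Cdkn1a, which encodes the cell cycle inhibitor p21, stood at 801, 443 and 4477 with the fusion protein alone and 1394, 1682 and 3787 with 20 Gy added (0.83 ± 1.31), with library 3 highest in both groups. The break repair list had a median of −0.03. Its member of smallest p was Nbn, a subunit of the MRN complex that senses broken ends, at 371, 330.2 and 393 with the fusion protein alone and 487, 433 and 591 with 20 Gy added (0.46 ± 0.18), groups apart.

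Of 35 cell cycle genes, 3 were higher on average (24 without fusion protein library 3). In all 3 pairs 5 were lower (background 16.3%) and 1 higher (19.6%). The median was −0.18, with 0.03 without fusion protein library 3 and 0.04 without number 3 in every group. Cenpf, a kinetochore protein, stood at 831, 699 and 1147 with the fusion protein alone and 752, 624 and 674 with 20 Gy added (−0.36 ± 0.23), and Tpx2, a spindle protein, ran the other way at 0.39 ± 0.34. Immediate early and heat shock genes, which tissue digestion can induce, had a median of −0.15. In all 3 pairs 7 of 20 were lower (background 16.3%) and 0 higher (19.6%). Without fusion protein library 3 the median was 0.09 with 11 of 20 higher on average, and without number 3 in every group it was −0.086. Dnajb1, an HSP40 cochaperone, stood at 3287, 2348 and 2504 with the fusion protein alone and 1866, 2009 and 1897 with 20 Gy added (−0.48 ± 0.24), groups apart. The medians of the glycolysis, NF-kB and cholesterol lists were −0.13, 0.10 and −0.10, and without fusion protein library 3 they were 0.45, 0.41 and 0.063. With number 3 left out of every group, so that both sides lost it, they were 0.15, 0.10 and 0.11. Leaving out combined library 3 turned the NF-kB median to −0.22. The median of mast cells and basophils was 0.04, −0.83 (without fusion protein 2) to 0.86 (without combined 2) over left-out libraries. Mitochondrially encoded genes had a median of 0.45, 0.14 (without combined 2) to 0.79 (without combined 1) over left-out libraries, with mt-Nd6, a subunit of complex I, at 0.83 ± 0.29.

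The same dose without the fusion protein, 20 Gy against untreated tumours, shares no library with this comparison and also gave 0 calls (0%). Across the 18274 genes the log2 fold changes of both comparisons correlated at Pearson's r = 0.47 and Spearman's rho = 0.466, and 68.5% had the same sign. Genes are not independent replicates and the numbers 1 to 3 may link the libraries, so this is a description. By chi-square, a measure of read differences, 20 Gy libraries 1 and 2 were closer than any other 2 libraries of a group. The mean per gene was 11.9, against 198.4 for libraries 1 and 3 and 151.3 for 2 and 3. Their log2 correlation of 0.952 was below the 0.969 of untreated libraries 1 and 2. Whether 20 Gy libraries 1 and 2 are independent was not tested. The 20 Gy pair counts and the interaction rest on them. The limma SE and p of the combined group against the fusion protein group draw on their spread too. With 20 Gy alone the T cell list had a median of −0.89 (0 of 22 higher on average against 53.3% of genes, 22 lower against 46.7%, and 19 lower in all 3 pairs against 20.3%), the cDC1 list 0.80 and the neutrophil list 3.41. The interferon list had a median of 0.47 after 20 Gy alone, with 18 of 39 higher in all 3 pairs against a background of 20.7%. Monocyte and macrophage medians were 1.90 and 1.43 there, and cell cycle genes had a median of 0.36, with 22 of 35 higher in all 3 pairs.

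**Figure D5:**
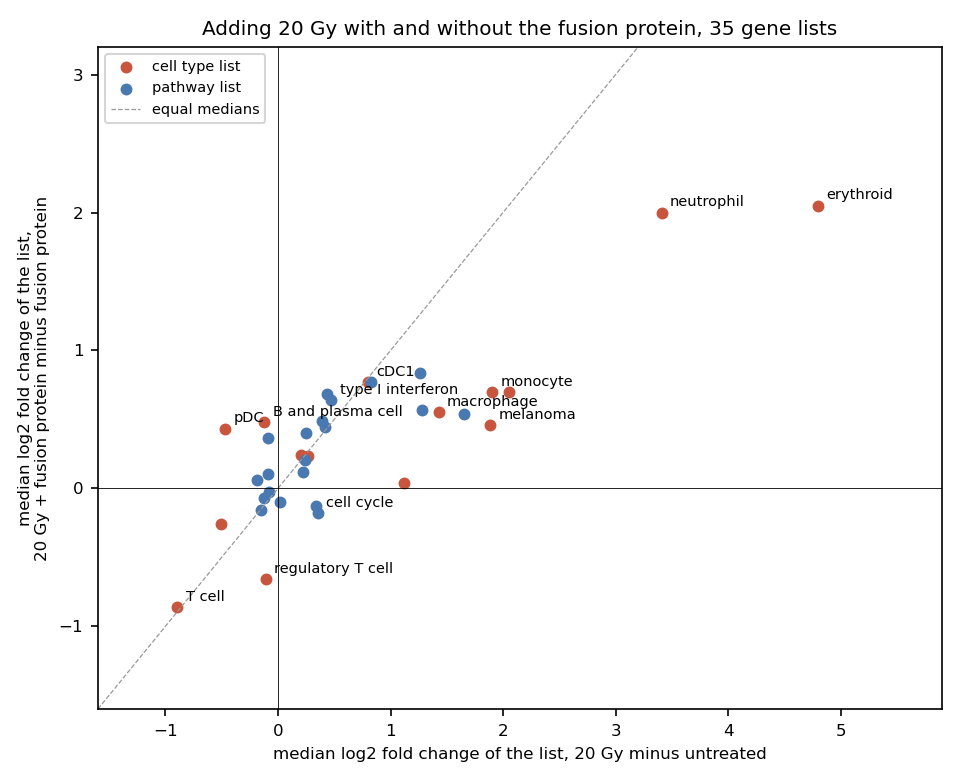
Median log2 fold change of each of 35 gene lists, with 20 Gy minus untreated on the x axis and the combined group minus the fusion protein group on the y axis; the dashed line marks equal medians. Neutrophil and erythroid lists lie at the upper right, the T cell list at the lower left, and the plasmacytoid dendritic cell list at −0.47 and 0.43.

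Whether the effect of 20 Gy differed with the fusion protein present was tested by the interaction, the difference of both log2 fold changes. Limma called 0 genes (0%), 188 had an unadjusted p under 0.05, edgeR called 0 with 221, and the block fit called 0 with 555. DESeq2 called 1, Xlr3b, an X-linked gene of a family of near copies that may share reads, with a log2 interaction of −6.20 (adjusted p = 0.0253). It stood at 1.50, 1.25 and 0 in untreated libraries and 29.0, 30.0 and 24.9 after 20 Gy, and at 16.9, 5.07 and 7.69 with the fusion protein alone and 5.39, 3.93 and 2.59 with 20 Gy added, all low counts. The limma interaction for Xlr3b was −5.04 ± 0.90.

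The genes below are of smallest interaction p by limma among those with a highest group mean of at least 50 normalized counts, predicted genes, pseudogenes and antigen receptor segments left out, a level that Xlr3b does not reach. Tcf4 and Tlr9 were among the 5 of these in the positive direction. Tcf4 stood at 3743, 4326 and 4334 untreated and 3719.6, 3984 and 3704 after 20 Gy, an interaction of 0.78 ± 0.30 (adjusted p = 0.9999, limma, as for each gene here). Tlr9 stood at 1433, 1398 and 1173 untreated and 912, 1131 and 1339 after 20 Gy, an interaction of 0.93 ± 0.31. Without the protein the groups of both genes overlapped, and with it the combined libraries lay above those of the fusion protein alone. Tmem86a, a lysoplasmalogenase, gave 0.86 ± 0.34 and Mief2, a mitochondrial fission factor, 0.86 ± 0.34. Mief2 gave only 0.02 ± 0.24 for 20 Gy added to the protein. Without the protein it stood at 144, 163.5 and 101 untreated and 72.2, 76.1 and 74.6 after 20 Gy. In the other direction, Pglyrp1 gave −0.77 ± 0.24 from 388, 439 and 401 untreated and 416, 475 and 400.5 after 20 Gy. Cdca8, a subunit of the chromosomal passenger complex that acts in mitosis, gave −1.10 ± 0.37, from 124, 127 and 205 untreated and 186, 236 and 230.3 after 20 Gy. It stood at 318, 252 and 361 with the fusion protein alone and 230.1, 169 and 236 with 20 Gy added, so it was higher on average with radiation alone and lower in each pair when radiation was added to the protein. Prr11, another gene of dividing cells, gave −1.29 ± 0.42, Tfpi, an inhibitor of coagulation, −2.04 ± 0.70, and Gpx8, a peroxidase of the endoplasmic reticulum, −3.23 ± 1.10.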

How the data were processed

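Per the submitters' processing notes, reads were checked with FastQC, trimmed with Trimmomatic, aligned with STAR to mm10 (GRCm38), counted with featureCounts and normalized with DESeq2, and no version is given in the sources used here. The deposited signal values are counts that the authors divided by a size factor per library. Multiplying by the recovered factors gave whole reads within 0.001 in 100% of values. Symbols came from GENCODE vM21 for 99.53% of identifiers. Library totals were 14462032 to 23985496 reads.

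Testing took the 18274 genes that reached 10 normalized counts in 3 or more libraries, with limma 3.58.1 on log2(normalized count + 1), all 12 libraries in 4 groups, variance trend on, two-sided, with Benjamini-Hochberg adjustment and a threshold of 0.05 (8 residual and 3.313 prior degrees of freedom). Alternatives used edgeR 4.0.16 and DESeq2 1.42.0 on the recovered reads, and the steps were tested on simulated data. Members and lists (35 lists, 631 genes) were chosen with earlier results of these data known. The text names a fixed set (Itgax, Foxp3, Cd274, Ccr7, Fscn1, Il12b and the chemokines Ccl17, Ccl22, Cxcl9 and Cxcl10), then 10 genes in each direction by smallest p with groups apart and a higher mean of at least 50 (none passed the threshold, and predicted genes, pseudogenes and antigen receptor segments were left out), up to 4 members of smallest p and the highest-level members of a list, and 5 genes each way for the interaction. Some genes that this rule names are not reported here. Further genes of the lists were named after their values were seen. Libraries of the same number deviated together from their group means (correlations 0.436, 0.41 and 0.484), so the number was taken to pair them. The other pairings were below 0. Deviations from a group mean sum to 0, which pushes the other pairings below 0 on average, so their sign adds no support. The labels do not say what it stands for.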

Additional observations from a re-analysis of the deposited data

Results flagged for a closer look

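The plasmacytoid dendritic cell list differed in sign with and without the fusion protein, in every numbered pair. Its median was 0.43 for 20 Gy added to the protein, with 0.44, 0.31 and 0.81 in the numbered pairs. For 20 Gy against untreated the median was −0.47, with −0.15, −0.75 and −0.61. The list was picked from 35, and medians of some other lists also differed in sign. The interferon gamma list had 0.36 with the protein and −0.09 without it, and the cell cycle list −0.18 and 0.36. The difference between the list medians was not tested, and no single member passed the interaction test. Libraries 1 and 2 after 20 Gy were close by chi-square, as given above, so pairs 1 and 2 without the protein may not be independent. Ccr9, a homing receptor of plasmacytoid dendritic cells, stood at 518, 1609 and 4485 untreated, 460.2, 805 and 2875 after 20 Gy, 665, 837 and 713 with the fusion protein and 913, 775 and 821 in the combined group.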

How the results depend on the processing

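No gene was called for 20 Gy added to the fusion protein under any alternative tried: pseudocounts of 0.5 and 5, no filter, a stricter filter at 50, TMM scaling, edgeR, DESeq2, the replicate block, the receptor level as covariate, the 6 compared libraries alone, leaving out each compared library, and leaving out number 3 in every group. The block on the 6 libraries alone and the block with the receptor level, both chosen after seeing the data, also called none. The replicate block kept each log2 fold change and changed no call. For the interaction, DESeq2 alone called 1 gene, and the cause was not tested. Some named genes near 0 changed sign. Ccl22 was −0.21 by edgeR, −0.21 by DESeq2 and −0.086 without number 3, and Ccl17 was 1.07 and Itgax −0.12 without number 3. With the receptor level in the fit Ccr7 was 0.75 and Fscn1 0.82, and with the block too 0.46 and 0.52. Tyrp1 was −2.22 by edgeR and −2.23 by DESeq2, against 0.54 by limma. Leaving out 1 library moved Ccl22 from −1.11 to 1.19, Ccl17 from −0.93 to 0.37, Ccr7 from −0.78 to 0.52, Fscn1 from −0.81 to 0.58, Itgax from −0.18 to 0.68, Mief2 from −0.076 to 0.084 and Tyrp1 from −0.97 to 3.32.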
